A study of Mus musculus with 141 samples.

Results

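Gap junctions are channels that join the cytoplasm of neighbouring cells, and each of the joined cells supplies a ring of connexin proteins. The genes are grouped by sequence into alpha, beta, gamma and delta families, which supply the letter in each gene symbol. In the brain, astrocytes, oligodendrocytes and neurons use different connexins, and a CpG-rich start of such a gene can carry DNA methylation, the mark that is measured here.

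The 6 connexin genes described are Gjc1, Gjb6, Gja1, Gjb2, Gjc3 and Gjd2. The CpGs described are those inside each gene or within 1 kb of either of its ends (mm10), and 296 CpGs with a call were found there out of 1322177 in the whole data set. Gjc1 was chosen because of its difference between the arms, and values of Gjb6 were also known when the genes were chosen. Every level and difference below is therefore a description, with no test.

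The data are DNA methylation calls from single mouse glioma cells carrying the IdhR132H allele, which both groups share. In the AG-881 arm, 67 cells came from a culture kept in 1 µM AG-881, an inhibitor of mutant IDH enzymes also called vorasidenib, for more than 2 weeks. In the DMSO arm, 74 cells came from a culture kept in the vehicle, also for more than 2 weeks. Live cells were sorted by calcein AM and TO-PRO-3 staining and profiled by reduced representation bisulfite sequencing, in which the enzyme MspI cuts at CCGG and enriches CpG-dense DNA. The question of the comparison is how methylation differs after the mutant enzyme has been inhibited. The labels name no separate cultures and no animals, so each arm counts as 1 sample, no p-value is given, and intervals cover counting error only. The libraries carry 8 pool numbers, 4 in each arm and none in both, and an effect of a pool cannot be told apart from an effect of its arm. AG-881 cells had a median of 89440 CpGs (23895 to 190259) and DMSO cells a median of 67749 (10438 to 165853). The mean level per cell was 33.4% ± 3.61 in 67 AG-881 cells and 34.3% ± 2.85 in 74 DMSO cells (SD over cells). The labelled cell type could not be set against marker genes, because transcript levels are not analysed here.

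Coverage was very uneven between the genes. Gjc1, a gamma connexin known from the heart's conduction system, vessel walls and neurons, held 136 of the 296 CpGs, or 45.9%. Gjb2, a beta connexin known from the inner ear and the coverings of the brain, held 60, and Gjd2, the delta connexin of electrical synapses between neurons, held 45. Gjb6, a beta connexin of astrocytes, held 30, and Gja1, the main connexin of astrocytes, held 25. Gjc3, a gamma connexin of myelinating glia, had no CpG with a call. A CpG was called shared where at least 5 cells of each arm had a call, and 71 of the 296 CpGs met this: 49 in Gjc1, 14 in Gjd2 and 8 in Gjb6. Gja1 and Gjb2 had none, so their values below rest on whichever CpGs happened to be read in each arm.

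Promoter sequences from RefSeq (GRCm38.p6), running from 250 bases before a gene's start to 50 after it, were matched for Gja1, Gjb2, Gjb6, Gjc3 and Gjd2. They are shown for Gjd2 and Gjb2, the genes whose promoter held called CpGs, with each called CpG in capitals. Gjd2's lies at chr2:114013570-114013869 and Gjb2's at chr14:57104653-57104952, both on the minus strand and both written 5′ to 3′ in the direction of the gene.
Gjd2: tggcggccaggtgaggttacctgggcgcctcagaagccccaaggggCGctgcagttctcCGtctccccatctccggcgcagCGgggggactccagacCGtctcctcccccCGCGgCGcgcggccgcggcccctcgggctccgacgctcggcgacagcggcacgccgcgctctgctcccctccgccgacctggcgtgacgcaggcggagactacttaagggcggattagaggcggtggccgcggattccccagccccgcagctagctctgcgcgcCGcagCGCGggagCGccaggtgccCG
Gjb2: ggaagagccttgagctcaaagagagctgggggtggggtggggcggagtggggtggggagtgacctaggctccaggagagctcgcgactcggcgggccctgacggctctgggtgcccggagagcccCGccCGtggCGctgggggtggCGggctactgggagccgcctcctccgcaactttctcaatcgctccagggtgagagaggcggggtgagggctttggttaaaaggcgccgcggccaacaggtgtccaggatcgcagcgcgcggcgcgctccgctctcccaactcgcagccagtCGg
The Gjd2 promoter was 75% G and C and held 41 CpGs, of which 12 had a call. The Gjb2 promoter was 70% G and C and held 27 CpGs, of which 5 had a call. Both contained 1 CCGG, searched on both strands since it reads the same on each, and 53.1% of the 32619 promoters in the table held at least 1. The median promoter held 7 CpGs. Gjb6 held 6 CpGs and no CCGG, Gja1 held 8 CpGs and no CCGG, and Gjc3 held 5 CpGs and 1 CCGG. None of those CpGs had a call.

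In the Gjd2 promoter shown, 6 of 39 calls in 8 AG-881 cells were methylated, or 15.4% (5.86 to 30.5, 95% exact binomial interval), against 12 of 14 calls in 3 DMSO cells, or 85.7% (57.2 to 98.2). In the Gjb2 promoter, none of 9 calls in 2 AG-881 cells was methylated, which allows a share of up to 33.3%, against 7 of 15 calls in 3 DMSO cells, or 46.7% (21.3 to 73.4). These shares rest on few cells, and the calls within a cell are not independent. None of the called CpGs in either promoter was shared, so the arms were read at partly different positions.

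Gjc1 (chr11:102799477-102819686) was lower in AG-881 cells at its CpG-dense end, which is the end at the higher coordinate. Over the 41 shared CpGs within 1 kb of that end (chr11:102818686-102820686), 105 of 320 calls in 35 AG-881 cells were methylated, or 32.8% (27.7 to 38.3). In DMSO cells, 125 of 230 calls in 22 cells were methylated, or 54.3% (47.7 to 60.9). The difference was -21.5 percentage points (-29.9 to -12.9), and the counting intervals of the arms did not overlap. The AG-881 interval lay below the DMSO interval at 2.19% of all 9037 measured gene ends. With every called CpG of the window, 106 in all, the level was 34.3% in AG-881 cells (171 of 499 calls) and 44.8% in DMSO cells (152 of 339 calls), and the difference shrank to -10.6 points (-17.4 to -3.65).

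The pools of each arm differed among themselves. Over the 41 shared CpGs, AG-881 pools 1 to 4 had levels of 11.1%, 37.5%, 43.4% and 40.4%, from 81, 72, 53 and 114 calls. DMSO pools 5 to 8 had levels of 51.9%, 46.2%, 56.4% and 57%, from 27, 39, 78 and 86 calls. Every AG-881 pool lay below every DMSO pool, as at 1.3% of the 7450 measured gene ends with at least 10 calls in each pool, and AG-881 pool 1 lay well below the rest. Without pool 1 the difference was -14.2 points (-23.3 to -4.85), and without AG-881 pool 4 it was -25.7 points. With every called CpG, the AG-881 pools had 14.1%, 33.3%, 44.6% and 40.7%, against 33.8%, 45.8%, 48.4% and 47.7% in the DMSO pools, and the arms' pools overlapped.

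**Figure D1:**
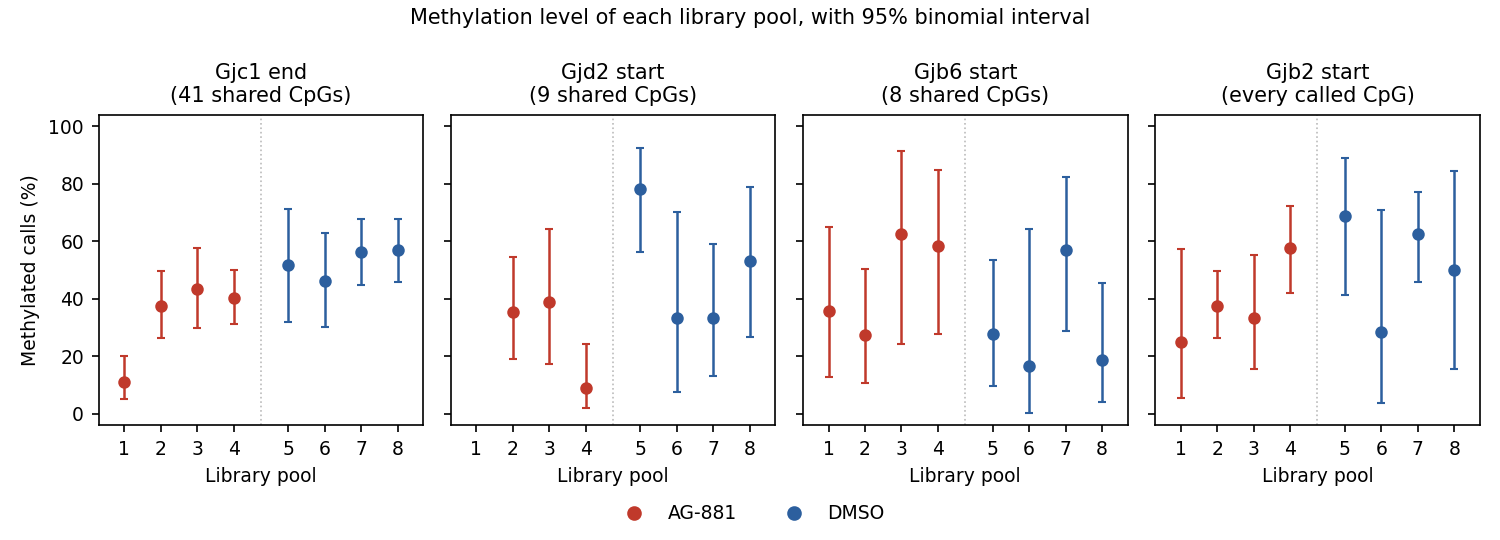
Share of methylated calls in each library pool (x axis, pool number; y axis, percent), AG-881 pools in red and DMSO pools in blue, with 95% exact binomial intervals. The levels of the arms' pools separate at Gjc1 over the shared CpGs, but the intervals of AG-881 pools 2 to 4 overlap those of the DMSO pools. The levels overlap at Gjd2, Gjb6 and Gjb2, and at Gjc1 with every called CpG, which is not drawn. AG-881 pool 1 has no shared call at Gjd2.

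CpG by CpG, 32 of the 41 shared positions of the Gjc1 end were lower in AG-881 cells and 9 were higher. With every CpG called in both arms, 44 were lower and 30 higher, and where a minimum of 2 cells per arm was asked for, 41 were lower and 19 higher. All 41 shared CpGs lay inside the gene, 64 to 870 bp from the end. Differences ran from -68.9 to 37.1 points with a median of -25, and each position rested on 6 to 11 AG-881 calls and 5 to 8 DMSO calls. The position nearest the end, at 64 bp, had 1 of 9 calls methylated in AG-881 cells and 4 of 5 in DMSO cells. At 203 bp there were 3 of 9 in AG-881 cells and 5 of 5 in DMSO cells. Not every stretch was lower: at 413 bp, 4 of 7 calls were methylated in AG-881 cells against 1 of 5 in DMSO cells.

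By distance from the end, the shared CpGs from 0 to 250 bp stood at 23.4% in AG-881 cells (11 of 47 calls) and 57.7% in DMSO cells (15 of 26 calls). The CpGs from 250 to 500 bp stood at 40.3% in AG-881 cells (54 of 134) and 52.4% in DMSO cells (54 of 103), a difference of -12.1 points whose interval reached 1.26. The stretch from 750 to 1000 bp stood at 29.3% in AG-881 cells (39 of 133) and 58.3% in DMSO cells (56 of 96). The differences of -34.3 points (-56.3 to -8.88) nearest the end and -29 points (-41.5 to -15.5) farthest from it had intervals below 0, and the one between them did not. From 500 to 750 bp there was 1 shared CpG, and over all 25 called CpGs there the level was 26% in AG-881 cells (13 of 50 calls) and 10.5% in DMSO cells (6 of 57), a difference of 15.5 points (-0.339 to 31.2). Position levels in the arms had a Pearson correlation of 0.356 and a Spearman correlation of 0.320 over the 41 CpGs, which share cells and reads.

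**Figure D2:**
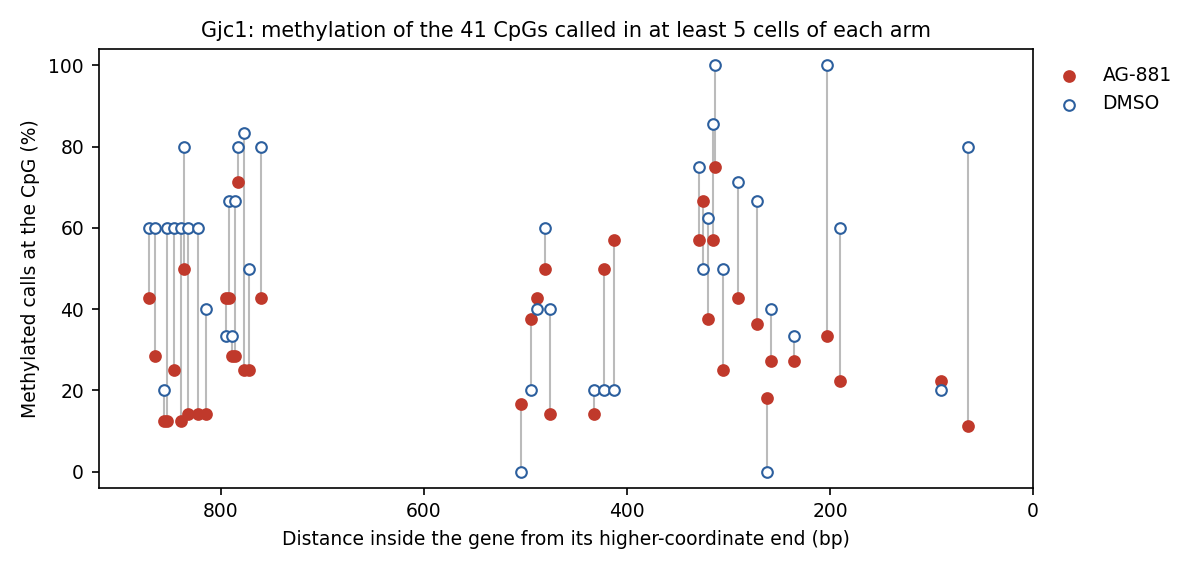
Methylated calls (y axis, percent) at each of the 41 shared CpGs of the Gjc1 end against distance inside the gene (x axis, bp), AG-881 as filled red points and DMSO as open blue points, joined per CpG. The DMSO point lies above the AG-881 point at 32 of the 41 CpGs, and the largest exception lies at 413 bp.

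At the Gjc1 end most cells of both arms were mixed. AG-881 cells had a larger share of fully unmethylated cells, 25.7% against 9.52% in DMSO cells, and a lower median level. Among cells with at least 3 calls, 9 of 35 AG-881 cells were fully unmethylated, 25 were mixed and 1 was fully methylated, with a median level of 25% (0 to 100). Of 21 DMSO cells, 2 were fully unmethylated, 18 mixed and 1 fully methylated, with a median of 50% (0 to 100). Of the 9 unmethylated AG-881 cells, 6 came from pool 1. Without that pool, 3 of 26 AG-881 cells were unmethylated, or 11.5% (2.45 to 30.2), against 9.52% in DMSO cells (1.17 to 30.4). No cell dominated: the cell with most calls gave 10% of the AG-881 calls and 10.9% of the DMSO calls. Shared CpGs of the end were called in 52.2% of AG-881 cells and 29.7% of DMSO cells. The part of read depth in the result was not tested.

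Within a cell, neighbouring called CpGs of the Gjc1 end up to 50 bp apart had the same state in 184 of 263 pairs in AG-881 cells, or 69.96%, and in 139 of 197 pairs in DMSO cells, or 70.6%. Over both arms this was 70.2%, and the median of 854 gene ends of intermediate level was 70.5%. A cell's level at Gjc1 and its level over all CpGs had a Pearson correlation of 0.275 over 35 AG-881 cells and 0.0678 over 21 DMSO cells; cells of a pool share a library.

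The rest of Gjc1 was read more thinly. At the lower-coordinate end, 10 of 10 calls were methylated in AG-881 cells and 17 of 20 in DMSO cells, so this end was highly methylated in both arms. In the interior, over every called CpG, 35 of 93 calls were methylated in AG-881 cells, or 37.6%. In DMSO cells it was 70 of 129, or 54.3%, and the difference was -16.6 points (-29.8 to -2.69). Of these 27 CpGs, 18 lay in the first 250 bp beyond the window of the CpG-dense end. There the level was 27.8% in AG-881 cells and 44.2% in DMSO cells, a difference of -16.4 points (-30.2 to -1.52). The other called interior CpGs lay toward the lower-coordinate end, and most were fully methylated in both arms, on few calls. The interior difference therefore describes the stretch beside the window and not the whole interior. Over the 6 shared interior CpGs, which lie just beyond the window of the CpG-dense end, the level was 42.9% in AG-881 cells (18 of 42 calls) and 49.2% in DMSO cells (32 of 65), a difference of -6.37 points (-26.1 to 14.2).

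Gjd2 (chr2:114009601-114014378, minus strand) was also lower in AG-881 cells near its start. Over 9 shared CpGs within 1 kb of the gene's annotated start end (chr2:114013378-114015378), 21 of 82 calls in 16 AG-881 cells were methylated, or 25.6% (16.6 to 36.4), against 35 of 65 calls in 16 DMSO cells, or 53.8% (41 to 66.3). The difference was -28.2 points (-43.6 to -11.5), and with every called CpG of the window it was -33.4 points (-45.3 to -20.5). RefSeq's start for the promoter printed above lies 759 bp inside that end. The 9 shared CpGs lie just past the printed sequence, 74 to 178 bp into the gene from RefSeq's start.

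All 9 shared Gjd2 CpGs were lower in AG-881 cells, by differences from -52.8 to -8.33 points. They share cells and reads, so they are not 9 separate observations. The position 74 bp past RefSeq's start had 1 of 11 calls methylated in AG-881 cells and 3 of 6 in DMSO cells, while the one 856 bp inside the end had 7 of 11 in AG-881 cells and 6 of 7 in DMSO cells. Positions that were high in either arm tended to be high in the other, with a Pearson correlation of 0.721 over these 9 CpGs, which share cells and reads.

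The pools did not separate at Gjd2. AG-881 pool 1 had no shared call, and AG-881 pools 2, 3 and 4 had 35.5%, 38.9% and 9.09%. DMSO pools 5 to 8 had 78.3%, 33.3%, 33.3% and 53.3%. Without DMSO pool 5 the difference was -14.9 points (-33.4 to 3.51), and without AG-881 pool 4 it was -17.1 points (-35.3 to 2.60). In both cases the interval of the difference took in 0.

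Among Gjd2 cells with at least 3 calls, 5 of 16 AG-881 cells were unmethylated, 11 mixed and none fully methylated, with a median of 16.7%. Of 16 DMSO cells, 1 was unmethylated, 12 mixed and 3 fully methylated, with a median of 41.7%. The levels of the arms' cells overlapped widely. The gene's interior was highly methylated in both arms, at 36 of 37 calls in AG-881 cells and 31 of 34 in DMSO cells over 5 shared CpGs. With every called CpG of the interior it was 52 of 65 calls in AG-881 cells, or 80%, and 47 of 54 in DMSO cells, or 87.0%. That difference was -7.04 points (-21.0 to 7.85).

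**Figure D3:**
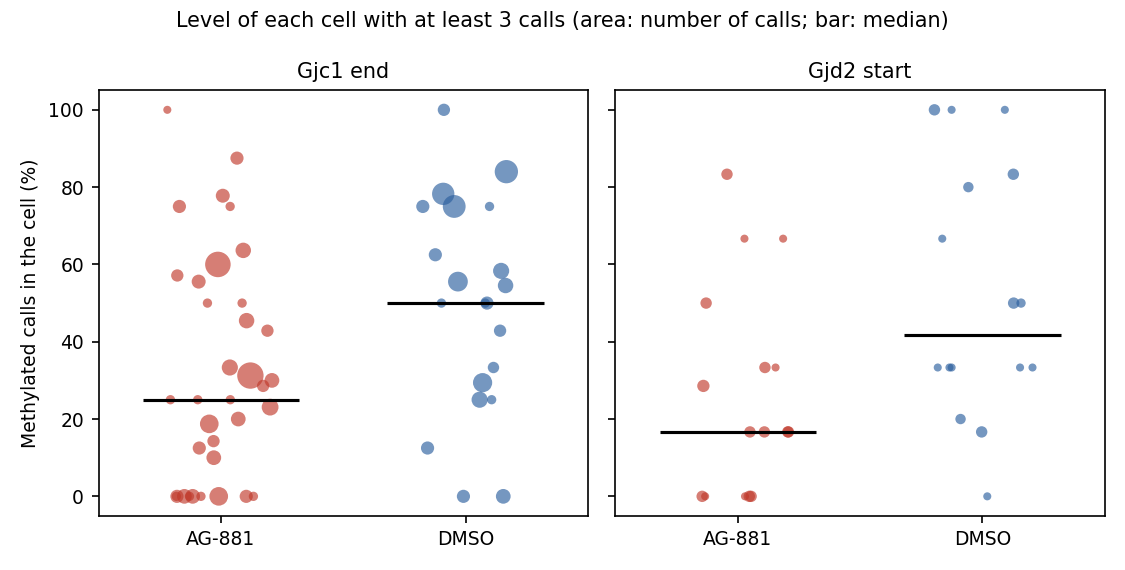
Methylation level (y axis, percent of calls) of each cell with at least 3 calls at the Gjc1 end (left) and the Gjd2 start (right), AG-881 cells left of DMSO cells in each panel, point area by number of calls and a bar at the median. The AG-881 medians, 25% and 16.7%, lie below the DMSO medians, 50% and 41.7%, and the cells of the arms overlap at both genes.

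Gjb6 (chr14:57123301-57133611, minus strand) did not share the lower level. Over 8 shared CpGs near its start, 23 of 56 calls in 17 AG-881 cells were methylated, or 41.1% (28.1 to 55), against 17 of 54 calls in 20 DMSO cells, or 31.5% (19.5 to 45.6). The difference was 9.59 points (-9.55 to 28), an interval that takes in 0. AG-881 pools 1 to 4 had 35.7%, 27.3%, 62.5% and 58.3%, against 27.8%, 16.7%, 57.1% and 18.8% in DMSO pools 5 to 8, and the pools overlapped. At single positions the sign varied: 625 bp inside the end, 6 of 7 calls were methylated in AG-881 cells and 1 of 6 in DMSO cells, while 569 bp inside it none of 7 was methylated in AG-881 cells and 4 of 7 were in DMSO cells. In all, 3 of the 8 CpGs were lower in AG-881 cells and 5 were higher.

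Gjb2 (chr14:57098602-57104702, minus strand) lies 18599 bp from Gjb6 on the same strand. Over every called CpG near its start, 64 of 153 calls in 15 AG-881 cells were methylated, or 41.8% (33.9 to 50.1), against 42 of 71 calls in 10 DMSO cells, or 59.2% (46.8 to 70.7). The difference was -17.3 points (-31.3 to -2.51), but none of these 49 CpGs was called in 5 cells of each arm, so the arms were read at partly different positions. AG-881 pools 1 to 4 had 25%, 37.5%, 33.3% and 57.8%, and DMSO pools 5 to 8 had 68.8%, 28.6%, 62.5% and 50%, which overlap. In its interior, 22 of 26 calls were methylated in AG-881 cells and 11 of 13 in DMSO cells, or 84.6% in each.

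Gja1 (chr10:56377300-56390419, plus strand) was covered by 59 calls in 19 AG-881 cells and 46 calls in 15 DMSO cells. Near its start, 3 of 13 calls were methylated in AG-881 cells and 4 of 15 in DMSO cells. In its interior, 35 of 46 calls were methylated in AG-881 cells, or 76.1% (61.2 to 87.4), and 20 of 31 in DMSO cells, or 64.5% (45.4 to 80.8), with overlapping intervals. Gjc3 (chr5:137950992-137963098, minus strand) had no call in any cell.

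The connexins were then set beside 9037 measured gene ends, taking for each protein-coding gene the end with more CpG positions and requiring at least 50 shared-CpG calls and 10 cells in each arm. Of the 6 connexins, Gjc1, Gjd2 and Gjb6 had such an end. Gjc1 and Gjd2 were lower in AG-881 cells by at least 10 points, against 3.4% of all measured ends, and nothing is read from that count because the choice of Gjc1 used the contrast. Gjb6 was not higher by 10 points, a rise reached by 0.896% of ends. Both Gjc1 and Gjd2 were lower by at least 20 points, against 0.409% of ends. Of the 9037 ends, 4 had a lower difference than Gjd2 and 27 a lower one than Gjc1. Among the 876 ends with a mean level of 20 to 60%, these numbers were 4 and 24. Nothing is read from the 20-point shares or from these ranks, since Gjc1 was chosen for its difference. Gjd2 rests on 82 AG-881 and 65 DMSO calls, and its difference was -14.9 points without DMSO pool 5.

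Most gene ends cannot show a decrease of 10 points, since 73.6% of them were below 5% methylated in both arms. Among the 876 ends with a mean level of 20 to 60%, where the 3 connexins lie, 71.2% were lower in AG-881 cells by any size, 22.7% were lower by at least 10 points, 5.25% were higher by as much, and 3.65% were lower by at least 20 points. The AG-881 interval lay below the DMSO interval at 9.25% of these ends. Their median difference was -4.13 points, against -0.0154 points over all ends. Levels over these 876 ends were 28.8%, 33%, 37.3% and 31.7% in AG-881 pools 1 to 4 and 38.8%, 35.5%, 37.8% and 35.9% in DMSO pools 5 to 8, so pool 1 was the lowest AG-881 pool there as it was at Gjc1. Its part in the Gjc1 result was not tested beyond the value without it. Every AG-881 pool lay below every DMSO pool, as at Gjc1, at 3.21% of the 592 such ends with at least 10 calls in each pool.

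**Figure D4:**
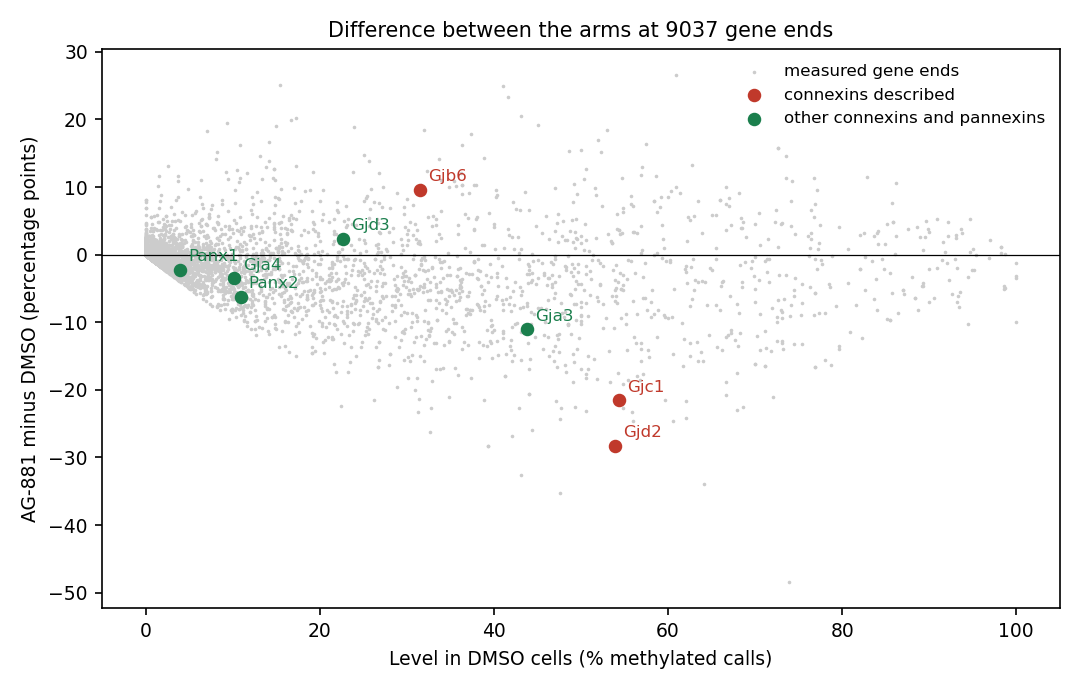
Difference between AG-881 and DMSO cells (y axis, percentage points) against the level in DMSO cells (x axis, percent) for 9037 gene ends in grey, with the 3 measured connexins described in red and the other connexins and pannexins reported here in green. Gjd2 and Gjc1 lie at -28.2 and -21.5 points near the lower edge, and Gjb6 lies at 9.59 points.

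Of 13 other connexin genes, 3 had a measured end, and 2 of these were lower in AG-881 cells, as were 50.8% of all measured ends. Gja3, a lens connexin, was at 32.8% in AG-881 cells (38 of 116 calls) and 43.8% in DMSO cells (35 of 80), a difference of -11.0 points (-25.3 to 3.49). Gja4, a connexin of vessel endothelium, was at 6.67% in AG-881 cells and 10.2% in DMSO cells. Gjd3 was at 25% in AG-881 cells and 22.6% in DMSO cells. Each of these 3 differences had an interval that took in 0, and their median was -3.50 points, which is the value of Gja4, against -0.0154 points over all ends. The Gja3 difference was -6.79 points without AG-881 pool 1, -7.24 without DMSO pool 8 and -17.2 without DMSO pool 7. Those of Gja4 and Gjd3 did not keep their sign when single pools were left out: Gja4 stood at 0 points without DMSO pool 8, and Gjd3 at -3.70 without AG-881 pool 4 and -2.78 without DMSO pool 8. Over every called CpG of the whole gene and 1 kb either side, Gja3 had a difference of -14.2 points (-22.2 to -6.10). On that measure Gjb1, which had no measured end, was higher in AG-881 cells by 15.8 points (1.80 to 29.2). The rest of the other connexins called in both arms had intervals that took in 0. The arms were read at partly different positions there.

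Pannexins form channels in the membrane of single cells and are unrelated to connexins in sequence. Panx1 was at 1.65% in AG-881 cells (2 of 121 calls) and 3.88% in DMSO cells (5 of 129). Panx2 was at 4.64% in AG-881 cells (7 of 151) and 10.9% in DMSO cells (10 of 92). Both ends were low in both arms, and both differences had an interval that took in 0, except at Panx2 without DMSO pool 7, where it was -8.35 points (-18.3 to -0.276). The Panx1 difference was -0.498 points without DMSO pool 8 and -3.75 without DMSO pool 5.

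Among 12 genes for proteins that bind, phosphorylate or deliver connexins, 7 had a measured end: 2 were lower in AG-881 cells, 2 higher and 3 had no methylated call in either arm, with a median difference of 0. The largest decreases were at Src, a tyrosine kinase that phosphorylates connexins, at 2.02% in AG-881 cells (8 of 397 calls) and 6.73% in DMSO cells (22 of 327), a difference of -4.71 points (-8.19 to -1.59), and at Mapk7. At Src, DMSO pool 7 had 0.877%, below every AG-881 pool, and without DMSO pool 5 the difference was -2.94 points (-6.85 to 0.175), against -7.84 without DMSO pool 7. Mapk7, a MAP kinase, had none of 394 calls methylated in AG-881 cells, which allows a share of up to 0.761%, and 6 of 275 in DMSO cells, or 2.18%, a difference of -2.18 points (-4.69 to -0.519). All 6 came from DMSO pools 5 and 6, and without pool 5 the DMSO level was 1.02% and the difference -1.02 points (-3.64 to 0.273). The 2 higher ends were Dbn1, which codes for the actin-binding protein drebrin, at 2.13% in AG-881 cells and 1.79% in DMSO cells, and Ctnnb1, which codes for beta-catenin, with 1 of 446 calls methylated in AG-881 cells and 1 of 499 in DMSO cells. Both of these differences had intervals that took in 0. Since no DMSO level among the 7 was above 6.73%, a fall of 10 points was not possible at any of them.

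**Figure D5:**
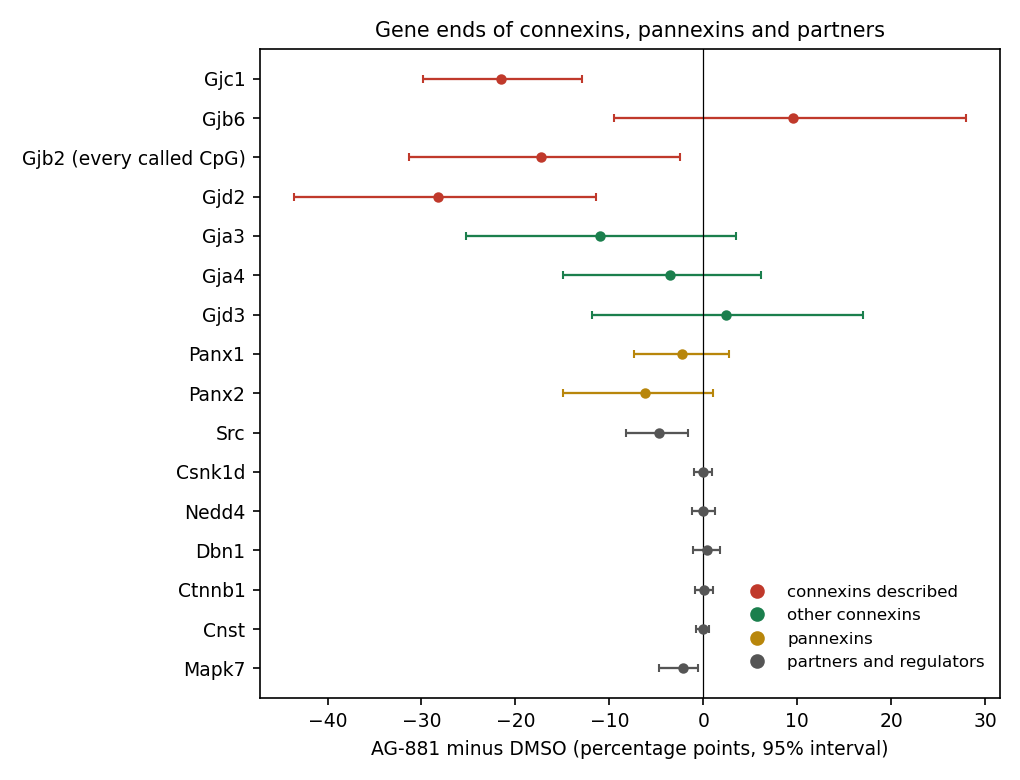
Difference between AG-881 and DMSO cells (x axis, percentage points) with its 95% interval for ends of the connexins described, other connexins, pannexins and connexin partners (y axis, genes), over shared CpGs except at Gjb2, where no CpG was shared and every called CpG was used. Gjc1, Gjd2 and Gjb2 lie left of 0 with intervals that do not reach it, while Gjb6, the other connexins and the pannexins have intervals that include 0. The partners lie within 5 points of 0, and among them Src and Mapk7 also have intervals that lie below 0.

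Around Gjc1, 7 protein-coding genes had an end within 100 kb of its CpG-dense end, and 4 of them were measured. Adam11, at 58.3 kb, was at 9.62% in AG-881 cells (15 of 156 calls) and 14.8% in DMSO cells (20 of 135). Eftud2 and Ccdc103, at 61.3 and 61.5 kb, share the same calls, with none of 228 methylated in AG-881 cells, which allows up to 1.32%, and 2 of 248 in DMSO cells, or 0.806%. Fam187a, at 67 kb, was at 69.4% in AG-881 cells (50 of 72) and 78.0% in DMSO cells (64 of 82). All 4 were lower in AG-881 cells, as were 50.8% of all measured ends. The differences were -5.20 points at Adam11, -0.806 points at Eftud2 and Ccdc103, which count once, and -8.60 points at Fam187a. At each of them the counting intervals of the arms overlapped. Only Fam187a had a DMSO level from which a fall of the size seen at Gjc1 was possible, and the differences between genes were not tested.

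The 5 gene ends whose levels over the 8 pools came closest to those of Gjc1, out of 7449 with at least 10 calls in every pool, were Igf2r, Ascl2, Tmem132c, 1110032F04Rik and Rtn4rl1. Their root mean square distances over the 8 pools were 6.67, 8.72, 9.02, 9.26 and 9.51 points. Igf2r, an imprinted gene that codes for the receptor that binds insulin-like growth factor II, was at 36% in AG-881 cells and 60.6% in DMSO cells. Tmem132c came close in its pools with a difference between the arms of only -4.10 points, since AG-881 pool 1 stood at 5.56% there and the other 7 pools between 40.5% and 48.8%. Of the 5 ends most like Gjc1 by the Pearson correlation of pool levels, 1, Igf2r, was also among these.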

How the data were processed

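The authors deposited 1 table of 1416034 CpG positions by cell, whose values are the fraction of methylated reads at each position (0, 0.5 or 1; mm10 per the submitters' processing notes). It holds no read counts, so the depth behind a value is unknown, and the aligner and caller were not named in the labels used here. Column names gave the arm and the pool but not the well, so the 67 AG-881 and 74 DMSO columns were used as cells of an arm.

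Chromosomes 1 to 19 and X were kept and adjacent positions merged as the strands of 1 CpG. Calls above 0.5 counted as methylated and ties (0.649% of 11710527 calls) were left out. Calls were pooled over cells, with exact Clopper-Pearson 95% intervals. Intervals of differences combine those of the arms and cover counting error only. Where no call was methylated, the share allowed was taken as 3 divided by the number of calls. That lies below the exact upper limit, as at Mapk7 with 0.761% against 0.932%. Calls in a cell are not independent, and the intervals are too narrow for that reason. The steps were tested on simulated data in which every call was drawn independently, so that test does not cover calls that go together within a cell. Python 3.11.15, NumPy 2.4.6, SciPy 1.17.1 and Matplotlib 3.10.9 were used.

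The genes, lists and tests were chosen with earlier results of these data known. Of a list with at most 5 measured members all are named, otherwise the 2 largest decreases and increases; measured neighbours within 100 kb and the 5 ends most like Gjc1 by pool level are also named. Alternatives changed the CpGs used, the window, merging, ties, weights and pools. Some members of the lists are not reported here, and list counts leave them out.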

Additional observations from a re-analysis of the deposited data

How the results depend on the processing

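The Gjc1 and Gjd2 differences stayed below 0 in every alternative that gave a value, 21 for Gjc1 and 19 for Gjd2. Some of those for Gjd2 could not move it: a window of 2 kb and leaving out AG-881 pool 1 left its calls unchanged. Leaving out pools 1 and 5 together repeated the value without pool 5. Where DMSO pool 5 or AG-881 pool 4 was left out, the Gjd2 interval took in 0. Leaving out each pool in turn gave -25.7 to -14.2 points at Gjc1, -36.1 to -14.9 at Gjd2 and 4.23 to 18.6 at Gjb6. With every called CpG the Gjc1 difference was -10.6 points, and giving every 250-bp bin the same weight, an alternative chosen after seeing the data, it was -14.7. No shared CpG of the Gjd2 window lay within 500 bp of its end, and none of Gjc1, Gjd2 or Gjb6 was called in 10 cells of each arm, so those alternatives gave no value. At Gjb6 the difference fell below 0 in 2 of 20 alternatives. Higher Gjc1 CpGs numbered 19 (41 lower) with CpGs called in 2 cells of each arm and 30 (44 lower) with every called CpG, against 9 (32 lower); the cause was not tested. Without single pools, 27 to 34 Gjc1 CpGs were lower and 7 to 14 higher. Unmethylated cells at Gjc1 then made up 11.5% to 33.3% of AG-881 cells and 7.14% to 11.8% of DMSO cells, and fully methylated cells 0% to 4% of AG-881 cells and 0% to 7.14% of DMSO cells. No AG-881 cell was fully methylated, or 0%, when 5 CpGs per cell were asked for, which left the single such cell out, and when every called CpG was used, an alternative chosen after seeing the data. Gene ends lower and higher by 10 points numbered 133 and 22 with 100 calls and 20 cells per arm, where 6473 ends were measured, and 130 and 26 with CpGs called in 10 cells of each arm, where 5006 were; fewer ends were tested in each. Without single pools they numbered 241 to 320 and 65 to 92. Of the listed genes, 1 of 12 measured was lower by 10 points, beside 3.4% of all measured ends. With minima of 2 and 10 cells it was 2 of 15 and 0 of 5, beside 402 of 10333 and 130 of 5006 of all measured ends. With pools left out in turn, chosen after seeing the data, the count was 0 in 6 of 8 cases. These include the cases without DMSO pool 6 and without DMSO pool 7. Gja3 stood at -13.4 and -17.2 points there but no longer met the minimum of calls and cells. Of the 5 ends most like Gjc1, 1 was shared with the Pearson ranking. No paired analysis was possible because no label separates cultures of an arm and the pool numbers differ between the arms; leaving out pools 1 and 5, 2 and 6, 3 and 7, or 4 and 8 together gave -24.6 to -14.5 points at Gjc1. Single positions rest on 5 to 11 calls an arm. The alternatives were not run for gene interiors, Gjb2 or Gja1, which had no or too few calls at shared CpGs.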
